A study of Mus musculus with 8 samples.

Results

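The nuclear genes of respiratory complex I were measured in neonatal cardiomyocytes (NCMs) of mice that had been exposed in utero to filtered air (FA) or diesel exhaust (DE). The genes were taken by name, as all protein-coding genes whose symbol starts with Nduf, except Ndufa4 and Ndufa4l2. This gave 47 of the 27179 genes counted, 39 of them listed as subunits and 8 as assembly factors (Ndufaf1 to Ndufaf8). RNA-seq was run on 4 FA libraries (replicates 2, 3, 4 and 6) and 4 DE libraries (replicates 1, 3, 5 and 7), each from NCMs of 1 male C57Bl/6J heart on postnatal day 0. Dams breathed FA or DE from E0.5 to E17.5, and no group carried a transgene or any other treatment. In the sample names the number 11 marks all 4 FA libraries and DE replicates 1 and 7, and 12 marks DE replicates 3 and 5. The sources used here do not say what that number stands for. Whether the 8 neonates came from separate litters is not stated either, so the tests measure the spread between these hearts.

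Complex I (NADH:ubiquinone oxidoreductase) takes electrons from NADH, passes them to ubiquinone and pumps protons out of the mitochondrial matrix. It is an L-shaped machine with a matrix arm, which holds the flavin and the iron-sulfur clusters, and a membrane arm, which holds the proton pumps. Its core subunits descend from the bacterial enzyme, and those that pump protons are encoded in mitochondrial DNA, while the many accessory subunits surround the core. Assembly factors are absent from the finished enzyme, and they build it from modules or modify its parts. Heart muscle is rich in complex I, and in the newborn heart respiration increases as the fuel shifts toward fatty acids.

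Of the 39 subunit genes, 37 are the usual nuclear subunits and Ndufb4b and Ndufb4c are further copies of Ndufb4. Ndufb4b had 0 counts in every library and was not tested. Ndufb4c lay between 11.1 and 19.9 CPM (read counts normalized for library size), and its counts are uncertain, since reads shared with Ndufb4 may have been divided between the copies. The other 37 subunits and the 8 assembly factors were counted in every library, so 46 of 47 members passed edgeR's filter on low counts. Counts summed over the 8 libraries ran from 3328 to 146557 per tested subunit and from 2025 to 14760 per assembly factor.

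Promoters of 4 members are shown as examples, and other members held the same motifs. Whether the motifs go with the members' levels over the libraries was not tested. Windows of 250 bases before and 50 bases after a start site were taken from RefSeq (GRCm38.p6) for 41 members, 34 subunits and 7 assembly factors. Both strands were searched for GCGCANGCG, the core of the site for NRF1 (nuclear respiratory factor 1), AANATGGCG (the factor YY1), CCGGAAG (ETS factors such as GABPA) and TCAAGGTCA (estrogen-related receptors). The printed stretches run from 100 bases before to 50 bases after the start, with the NRF1 and YY1 letters in capitals. Ndufs7, a core subunit, held YY1 letters from position 25 after the start. Ndufs6 held YY1 letters from position 34 and NRF1 letters before the start. Ndufb4 and the assembly factor Ndufaf5 held NRF1 letters.
Ndufs7 promoter (chr10:80249349-80249498, plus strand, GRCm38.p6): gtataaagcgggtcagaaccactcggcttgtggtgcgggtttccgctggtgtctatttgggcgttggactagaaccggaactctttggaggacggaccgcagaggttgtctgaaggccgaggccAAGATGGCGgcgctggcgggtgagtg
Ndufs6 promoter (chr13:73328433-73328582, minus strand, GRCm38.p6): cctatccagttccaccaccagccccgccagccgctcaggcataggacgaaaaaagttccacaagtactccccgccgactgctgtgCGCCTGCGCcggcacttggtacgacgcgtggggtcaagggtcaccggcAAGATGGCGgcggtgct
Ndufb4 promoter (chr16:37654319-37654468, minus strand, GRCm38.p6): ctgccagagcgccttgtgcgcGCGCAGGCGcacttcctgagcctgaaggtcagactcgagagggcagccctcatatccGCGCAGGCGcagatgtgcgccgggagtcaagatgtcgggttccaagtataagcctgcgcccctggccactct
Ndufaf5 promoter (chr2:140170546-140170695, plus strand, GRCm38.p6): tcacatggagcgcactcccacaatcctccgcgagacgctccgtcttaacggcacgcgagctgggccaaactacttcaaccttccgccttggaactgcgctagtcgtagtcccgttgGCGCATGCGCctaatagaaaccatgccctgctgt
The NRF1 letters were in the windows of 8 of 34 subunits (23.5%) and 2 of 7 assembly factors, against 7.03% of the 27025 genes with a window. The YY1 letters were in 7 of 34 subunits (20.6%) and 1 of 7 assembly factors, against 2.76% of genes. The ETS letters were in 4 of 34 subunits (11.8%) and 2 of 7 assembly factors, against 9.93% of genes, and the receptor letters in 0 members, against 0.466% of genes. The YY1 letters hold ATG and can include the start codon, and the NRF1 letters read nearly the same on both strands, so that 1 stretch such as that of Ndufaf5 matches on each. No letters were found in the windows of 19 of the 41 members.

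In these cells, subunits were abundant and assembly factors were scarce. Levels between genes were compared per length, as CPM per kilobase of the main transcript, which was known for 36 tested subunits and all 8 assembly factors. The median over the 8 libraries was 201.9 CPM per kilobase for subunits and 16.4 for assembly factors, 12.3-fold apart. The lowest subunit stood 1.93-fold above the highest assembly factor. Subunits themselves spanned 10.4-fold.

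Ndufb8 and Ndufb9 were the highest subunits per length. Ndufb8, an accessory subunit of the membrane arm, was at 361, 545, 388 and 478 CPM per kilobase in FA replicates 2, 3, 4 and 6, and at 407, 457, 512 and 394 in DE replicates 1, 3, 5 and 7. Ndufb9, from the same arm, was at 354, 522, 384 and 451 in FA and at 371, 438, 486 and 388 in DE. FA replicate 3 was the highest library for both, FA replicate 2 was the lowest, and their ranges overlapped.

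At the lower end stood Ndufa6, Ndufa8 and Ndufa12, which are all accessory. Ndufa6 was at 63.4, 96.0, 76.1 and 90.9 CPM per kilobase in FA and at 76.8, 91.6, 97.3 and 75.1 in DE. Ndufa8 was at 39.8, 55.5, 43.2 and 56.3 in FA and at 41.3, 46.0, 51.8 and 46.8 in DE. Ndufa12 was at 34.0, 48.3, 39.1 and 44.7 in FA and at 39.5, 46.2, 49.7 and 40.3 in DE. Ndufa8 and Ndufa12 overlapped each other and lay below Ndufa6 in every FA library. In all, 33 of the 35 neighbouring pairs in the order overlapped in FA. The ranges lay apart at only 2 steps, of which that below Ndufa6 is one. Such ranges do not compare genes within a library. Ndufb8 was above Ndufb9 in every library, and Ndufa8 was above Ndufa12 in every FA library. Among assembly factors the mean over 8 libraries ran from 22.1 CPM per kilobase (Ndufaf1) to 10.2 (Ndufaf3), and Ndufaf1 alone stood clear of its next neighbour, Ndufaf4, in FA.

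**Figure D1:**
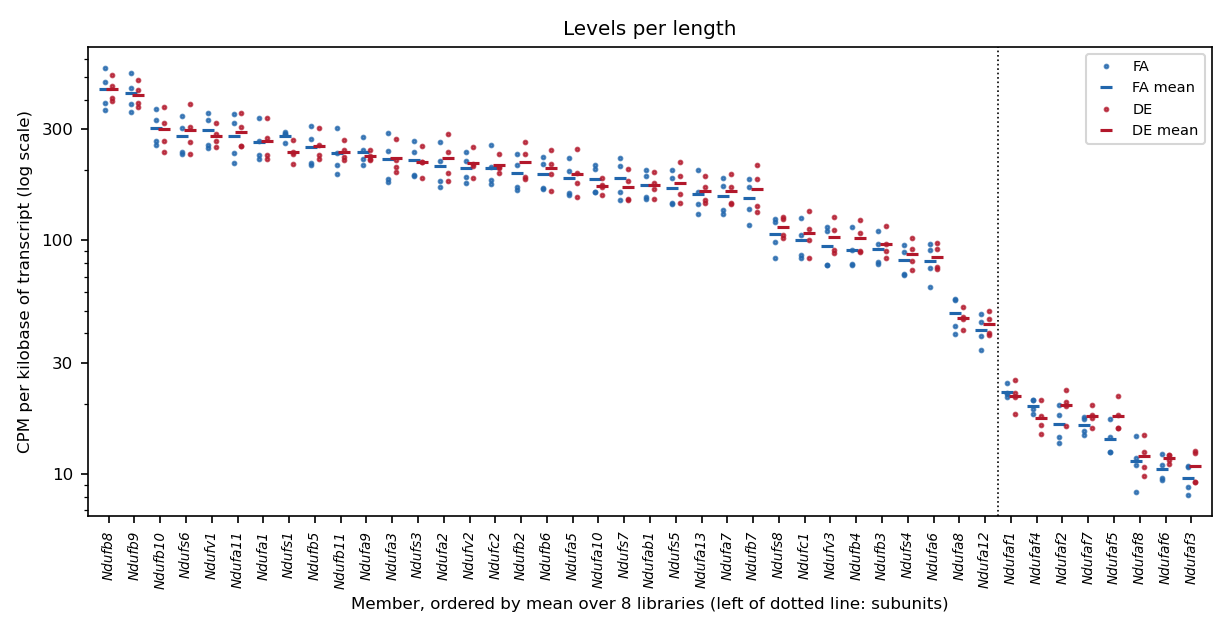
CPM per kilobase of transcript on a log axis for 35 subunits (left of the dotted line) and 8 assembly factors (right), with a point per library and a dash for the mean of 4 FA (blue) or 4 DE (red) libraries. The subunits all lie above the assembly factors, FA and DE points overlap for each gene, and a step follows Ndufa6.

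To compare the groups, DE was tested against FA over all 14966 genes that passed the filter, with edgeR's quasi-likelihood test and Benjamini-Hochberg adjustment. Calls needed both a difference of at least 25% and an adjusted p no higher than 0.05. No subunit and no assembly factor was called (0 of 38 and 0 of 8). Over all tested genes, 5.80% were called, 3.58% as higher and 2.22% as lower in DE. In all 46 members FA and DE libraries overlapped in CPM, whereas the groups were apart for 14.7% of all tested genes. At an unadjusted p under 0.05 stood 1 subunit (Ndufs1) and 1 assembly factor (Ndufaf5), against 25.6% of all tested genes.

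The subunits' fitted differences were small. They ran from -0.24 to 0.17 on the log2 scale with a median of 0.05 (all tested genes 0.00), and 26 of 38 were above 0. The 16 genes of the matrix arm had a median of 0.06 (10 above 0), and the 21 of the membrane arm had a median of 0.02 (15 above 0). The 7 nuclear core subunits had a median of -0.06 with 2 above 0, and the 31 accessory subunits a median of 0.06 with 24 above 0. The 95% intervals of the subunits' differences had a median reach of 0.31 to either side, and 33 of 38 reached a difference of 25% in at least 1 direction. A change of that size is therefore not excluded for most subunits, and the missing calls do not show equal levels.

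Among core subunits, Ndufs1 carries iron-sulfur clusters in the matrix arm, next to the NADH site. It lies on chromosome 1 from 63143592 to 63176822 (Entrez gene 227197). In FA it was at 736, 679, 741 and 751 CPM in replicates 2, 3, 4 and 6, and in DE at 622, 548, 604 and 695 CPM in replicates 1, 3, 5 and 7. DE replicates 1, 3 and 5 lay below every FA library, and DE replicate 7 lay above FA replicate 3. Its mean CPM was 727 ± 32.5 for FA and 617 ± 60.6 for DE (SD, n = 4 each). The log2 fold change was -0.24 (standard error 0.10, 95% interval -0.45 to -0.02), with an unadjusted p of 0.0339 and an edgeR adjusted p of 0.161. In 17 alternative fits (edgeR or DESeq2) the fold change ranged from -0.30 to -0.14 on the log2 scale and the adjusted p from 0.0650 to 0.603.

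Ndufs7 and Ndufs8 carry the iron-sulfur clusters that lead to ubiquinone. Ndufs7 was at 112, 170, 122 and 157 CPM in FA and at 112, 135, 154 and 114 CPM in DE, a log2 fold change of -0.12 (standard error 0.15, edgeR adjusted p = 0.641). This value ran from -0.019 without FA replicate 3 to -0.22 without FA replicate 2 or DE replicate 5, it was -0.31 with the name prefix as a term and -0.32 with prefix 11 alone, and it was -0.39 and called with the length and GC offsets. Ndufs8 was at 82.6, 121, 96.6 and 117 CPM in FA and at 104, 121, 123 and 100 CPM in DE, a log2 fold change of 0.11 (standard error 0.13, edgeR adjusted p = 0.649). The log2 fold change of Ndufs8 was 0.0063 without FA replicate 2, -0.036 with prefix 11 alone and -0.12 with the length and GC offsets. FA replicate 2 was the lowest library for Ndufs7 and Ndufs8, and the groups overlapped. The remaining core subunits lay between -0.08 (Ndufv1, which binds flavin and NADH) and 0.06 (Ndufv2, its iron-sulfur partner), with Ndufs3 at -0.02.

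Of the accessory subunits, Ndufv3 belongs to the matrix arm, where it sits beside Ndufv1 and Ndufv2. Ndufv3 was at 124, 180, 124 and 173 CPM in FA and at 139, 175, 199 and 144 CPM in DE (log2 fold change 0.13, standard error 0.16, edgeR adjusted p = 0.643). Its log2 fold change was -0.091 with prefix 11 alone and -0.024 with the length and GC offsets. The other accessory genes of that arm lay between -0.05 (Ndufa9) and 0.11 (Ndufa2). Ndufa2, Ndufa5, Ndufa6, Ndufa7, Ndufa12, Ndufs4 and Ndufs6 were all above 0, and none reached an unadjusted p of 0.05.

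Membrane arm subunits with the smallest p were Ndufb4, Ndufb2, Ndufb7 and Ndufa10, accessory proteins around the pumping core. Ndufb4 was at 77.0, 111, 76.1 and 88.3 CPM in FA and at 87.3, 104, 118 and 86.7 CPM in DE, a log2 fold change of 0.17 (standard error 0.15, edgeR adjusted p = 0.487). Ndufb2 was at 74.8, 106, 76.8 and 95.3 CPM in FA and at 85.1, 107, 120 and 83.5 CPM in DE, a log2 fold change of 0.16 (standard error 0.15, edgeR adjusted p = 0.521). Both were highest in DE replicate 5, and the groups overlapped. Without that library the log2 fold changes were 0.074 for Ndufb4 and 0.058 for Ndufb2, and with prefix 11 alone they were -0.023 and -0.072. Ndufb7 was at 72.7, 114, 84.7 and 105 CPM in FA and at 82.3, 114, 131 and 87.0 CPM in DE (log2 fold change 0.14, standard error 0.18, edgeR adjusted p = 0.645). Its log2 fold change was -0.16 with prefix 11 alone and -0.14 with the length and GC offsets. Ndufa10, one of the longest members by transcript, was at 326, 410, 326 and 425 CPM in FA and at 317, 343, 374 and 350 CPM in DE (log2 fold change -0.10, standard error 0.12, edgeR adjusted p = 0.602). The remaining 17 genes of this arm lay between -0.07 (Ndufa8) and 0.10 (Ndufc1), and Ndufb8, the subunit highest per length, was at 0.00 (95% interval -0.31 to 0.31).

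**Figure D2:**
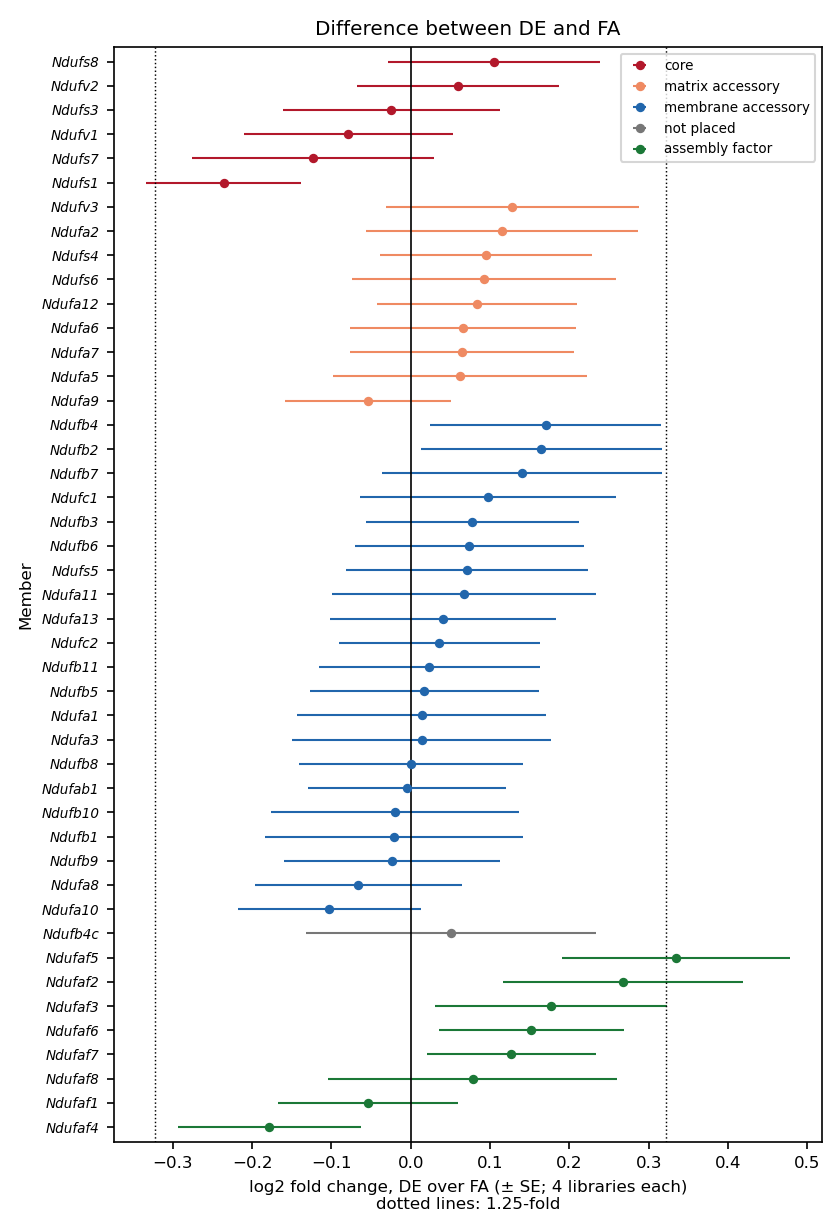
Fitted log2 fold change of DE over FA for 45 tested members (points) with the standard error (bars, from 4 libraries a group), by class, and with dotted lines at a 25% difference. The subunits lie between -0.24 (Ndufs1) and 0.17 (Ndufb4), and among members Ndufaf5 lies farthest from 0 (0.33).

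The assembly factors lay between -0.18 and 0.33 on the log2 scale with a median of 0.14, and 6 of 8 were above 0. Ndufaf5, a methyltransferase-fold enzyme that hydroxylates an arginine of Ndufs7, lies on chromosome 2 from 140170584 to 140218965. It was at 14.5, 16.9, 14.6 and 20.1 CPM in FA replicates 2, 3, 4 and 6 and at 18.4, 21.0, 25.2 and 18.3 CPM in DE replicates 1, 3, 5 and 7. All DE libraries lay above FA replicates 2, 3 and 4, while FA replicate 6 lay above DE replicates 1 and 7. Its log2 fold change was 0.33 (standard error 0.14, 95% interval 0.02 to 0.65), with an unadjusted p of 0.0393 and an edgeR adjusted p of 0.172. With prefix 11 alone the log2 fold change was 0.15.

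Ndufaf2 is a chaperone that stands in for a late subunit of the matrix arm during assembly. It was at 9.78, 13.3, 9.19 and 12.1 CPM in FA and at 10.9, 13.7, 15.5 and 13.3 CPM in DE (log2 fold change 0.27, standard error 0.15, edgeR adjusted p = 0.289), and its log2 fold change was 0.11 with prefix 11 alone. Ndufaf3 and Ndufaf4 work together on the early module that will hold the ubiquinone site. Ndufaf3 was at 13.1, 16.1, 12.1 and 15.9 CPM in FA and at 13.8, 18.3, 18.7 and 13.7 CPM in DE (0.18, standard error 0.15, edgeR adjusted p = 0.472). Its partner Ndufaf4 was at 65.4, 75.7, 68.9 and 75.2 CPM in FA and at 58.9, 53.7, 75.2 and 64.1 CPM in DE (-0.18, standard error 0.12, edgeR adjusted p = 0.351). The fitted differences of these partners had opposite signs here, but with prefix 11 alone both were below 0 (-0.059 for Ndufaf3 and -0.22 for Ndufaf4). Whether they differ from each other was not tested.

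Ndufaf7 is a methyltransferase that acts early in assembly, and Ndufaf1 acts on the membrane arm in the complex that also holds Acad9 and Ecsit. Ndufaf7 was at 26.7, 30.6, 25.8 and 30.2 CPM in FA and at 27.4, 30.3, 34.6 and 31.4 CPM in DE (0.13, standard error 0.11, edgeR adjusted p = 0.480). Ndufaf1 was at 30.9, 32.4, 31.8 and 35.6 CPM in FA and at 26.2, 30.9, 36.6 and 32.2 CPM in DE (-0.05, standard error 0.11, edgeR adjusted p = 0.794). In both genes the groups overlapped. Ndufaf6 was at 10.2, 11.9, 10.4 and 13.2 CPM in FA and at 11.9, 13.1, 13.1 and 12.5 CPM in DE (0.15, standard error 0.12, edgeR adjusted p = 0.432). Ndufaf8, a partner of Ndufaf5, was at 6.55, 11.4, 8.52 and 9.19 CPM in FA and at 7.68, 9.75, 11.5 and 8.42 CPM in DE (0.08, standard error 0.18, edgeR adjusted p = 0.817). Ndufaf8 was the lowest of the 8 by CPM.

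The members shared much of their order over libraries. DE replicate 5 gave the highest of the 8 values for 21 of 38 subunits and FA replicate 3 for 13, and FA replicate 2 gave the lowest for 24. As the mean log2 deviation from each gene's mean, the subunits stood at -0.25, 0.26, -0.17 and 0.11 in FA replicates 2, 3, 4 and 6, and at -0.17, 0.08, 0.26 and -0.10 in DE replicates 1, 3, 5 and 7. Each group thus held high and low libraries. Matrix and membrane arms moved alike, for example at -0.24 and -0.26 in FA replicate 2 and at 0.23 and 0.27 in DE replicate 5. Assembly factors stood at -0.22, 0.09, -0.18 and 0.09 in FA and at -0.13, 0.07, 0.28 and 0.00 in DE. The highest library of a subunit was between 1.26 and 1.80 times its lowest. The summed CPM of the subunits was 7427 ± 1081 for FA (6401 to 8679) and 7359 ± 813 for DE (6550 to 8438, SD, n = 4 each). Within groups the median coefficient of variation of a subunit was 17.3% in FA and 14.0% in DE, against 13.6% and 14.5% over all tested genes.

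Ndufs1 went against this order in several libraries. It was highest in FA replicate 6 and lowest in DE replicate 3, and its deviations were 0.14, 0.02, 0.15 and 0.17 in FA and -0.10, -0.29, -0.15 and 0.06 in DE replicates 1, 3, 5 and 7. In DE replicate 5, where the subunits averaged 0.26, Ndufs1 was below its own mean.

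**Figure D3:**
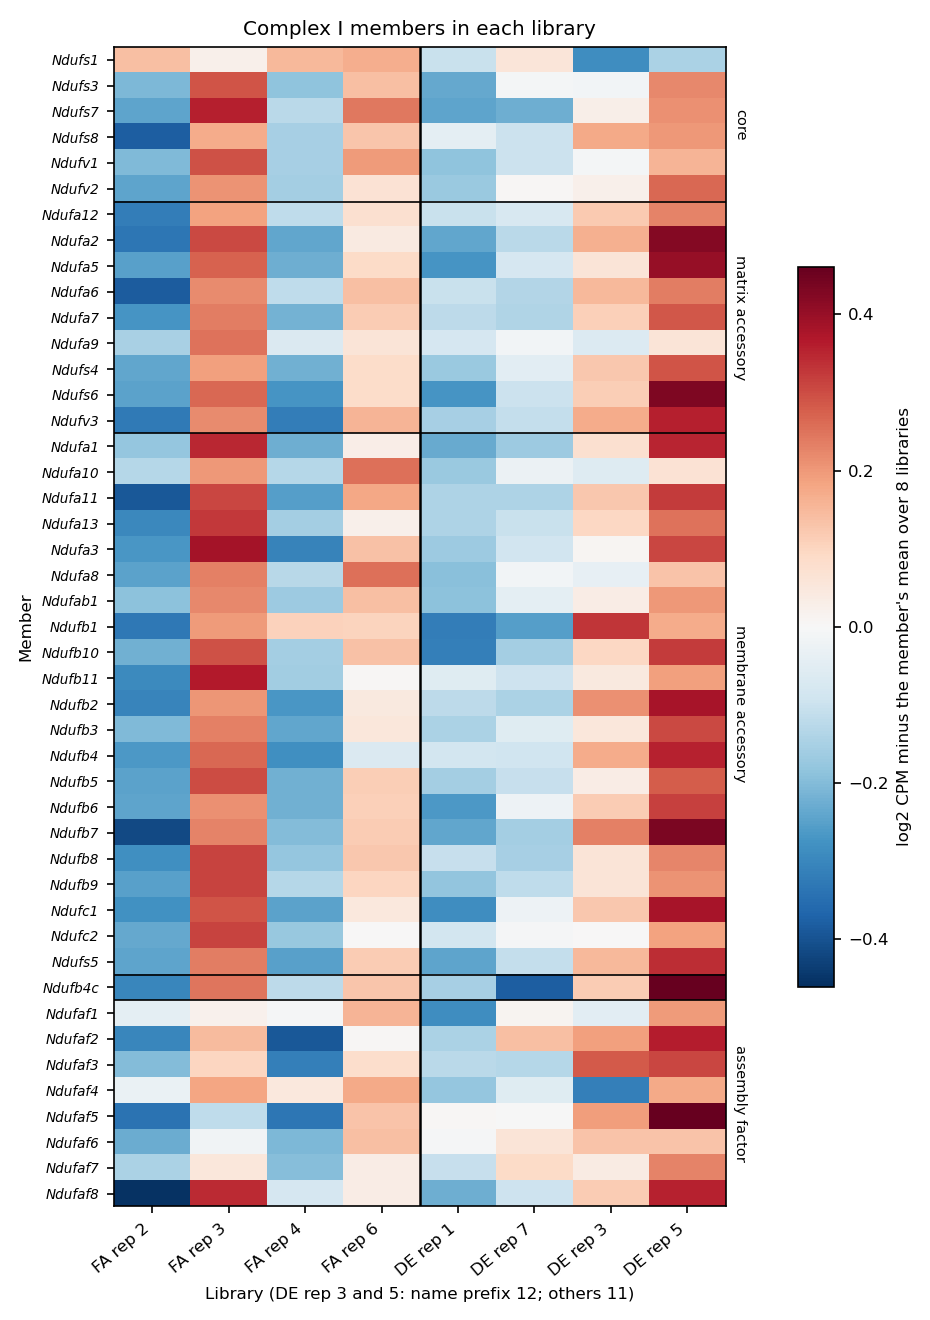
Colour gives log2 CPM of each of 45 tested members (rows, by class) in each of 8 libraries (columns) minus the member's mean over the libraries. Columns for FA replicates 2 and 4 and DE replicate 1 are mostly blue (low) and those for FA replicate 3 and DE replicate 5 mostly red (high), while Ndufs1 is red in FA replicates 2 and 4 and blue in DE replicate 5.

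Genes with short transcripts were also low in FA replicates 2 and 4 and high in DE replicate 5, but stood apart from the subunits in other libraries. The median transcript of a subunit was 868 bases, against 2889 over all tested genes. The 931 tested genes under 1000 bases stood on average at -0.27, 0.11, -0.22 and 0.02 in FA replicates 2, 3, 4 and 6 and at -0.03, 0.19, 0.27 and -0.05 in DE replicates 1, 3, 5 and 7. The 6580 genes of 3000 bases or more stood at 0.13, -0.08, 0.11 and -0.03 in FA and at 0.09, -0.10, -0.16 and 0.03 in DE. FA replicate 3 was higher for the subunits (0.26) than for short genes (0.11), DE replicate 1 was lower (-0.17 against -0.03), and so was DE replicate 3 (0.08 against 0.19). Of the 22 subunits under 1000 bases, 18 were above 0 in DE against FA, with a median of 0.07. The 907 other genes of that length had a median of 0.17, with 78.8% above 0. The share of subunits above 0 was thus near that of other short genes, and their median was below it. In the class of 1000 to 2000 bases, 12 subunits had a median of 0.03 and 3066 other genes a median of 0.10. The 2 subunits of 2000 to 3000 bases, Ndufs1 and Ndufa10, had a median of -0.17, against 0.02 for 3255 other genes. Across the 44 members with a length, the log2 fold change went with log2 length at a Pearson r of -0.36 (Spearman -0.23), a description over genes that share the same libraries.

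After each library's trend with length and GC content was removed, the subunits' mean deviations were -0.03, 0.16, 0.01 and 0.08 in FA and -0.14, -0.08, 0.03 and -0.04 in DE replicates 1, 3, 5 and 7. With the same trend as offsets in the test, the median log2 fold change of subunits was -0.12 and 4 of 36 were above 0. In that fit 11 of 36 subunits had an unadjusted p under 0.05, a share close to the 30.9% of all genes tested there. All 11 were lower in DE, against 16.5% of all genes for that direction. Of the subunits 1 was called, Ndufs7 (log2 fold change -0.39, standard error 0.08, edgeR adjusted p = 0.00939), where 11.3% of all genes tested were called. The 75 other genes that, like Ndufs7, had transcripts under 1000 bases and a GC fraction of 0.6 or more moved from a median of 0.22 to -0.08 under these offsets, so the offsets did not centre that class at 0. In the class that held 17 subunits (under 1000 bases, GC fraction from 0.5 to 0.6), the 542 other genes were centred (median 0.00 with offsets, 0.19 without), and the subunits had a median of -0.12 with offsets and 0.07 without. Across the 44 members the log2 fold change in that fit went with GC fraction at a Pearson r of -0.57, against 0.04 without offsets. No assembly factor was called with offsets (median 0.02, 5 of 8 above 0).

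**Figure D4:**
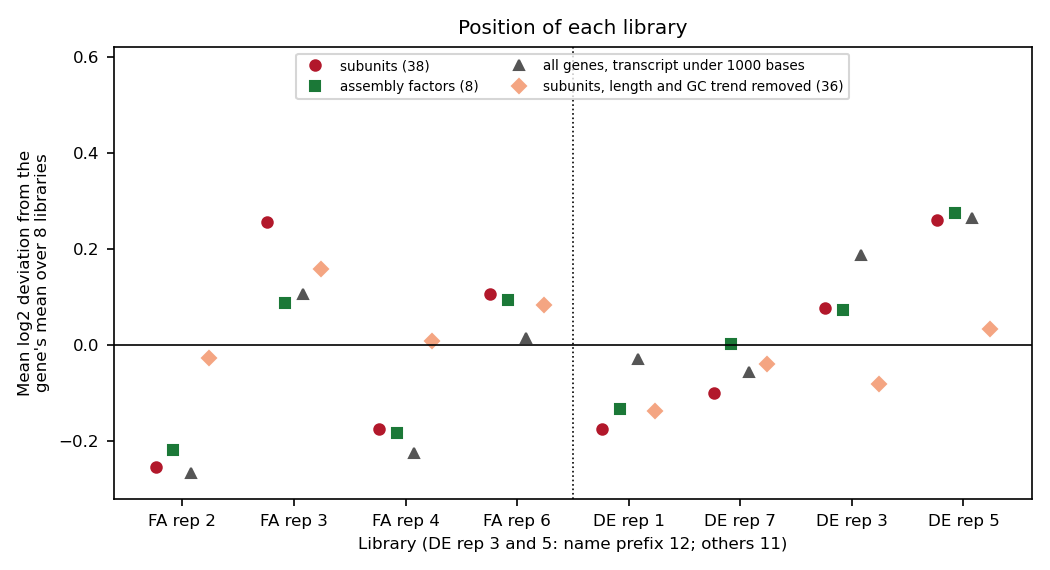
Mean log2 deviation from the gene's own mean in each of the 8 libraries for the subunits, the assembly factors, all tested genes with transcripts under 1000 bases, and the subunits after the length and GC trend was removed. Subunits and short genes lie low in FA replicates 2 and 4 and high in DE replicate 5, where the values with the trend removed lie nearer to 0.

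Within DE, the subunits' level also went with the name prefix. The summed subunits averaged 6760 CPM in the 2 DE libraries with prefix 11 and 7959 CPM in the 2 with prefix 12. All FA libraries carry prefix 11, and they ran from 6401 to 8679 CPM. The highest of them, FA replicate 3, was above every library with prefix 12. Among libraries with prefix 11 alone (4 FA, 2 DE), 0 of 38 subunits were above 0, and the median log2 fold change of subunits was -0.14. With the prefix as a term it was also -0.14, with 0 of 38 above 0. No member was called in either fit, where 1.75% and 2.99% of all genes were called. The median log2 fold change of assembly factors was -0.01 with prefix 11 alone and -0.00 with the prefix as a term, with 4 of 8 above 0 in each. Exposure and prefix are partly confounded, since FA has no library with prefix 12. The sign of the subunits' median therefore depended on which libraries and terms entered the fit. Single libraries moved it too. Without FA replicate 3 the median was 0.16 and 34 of 38 were above 0, and without DE replicate 5 it was -0.05 and 7 of 38 were above 0. It was also below 0 without FA replicate 2 (-0.04) and without FA replicate 4 (-0.01). No member was called without any 1 of the 8 libraries, where 1.53% to 7.93% of all genes were called.

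**Figure D5:**
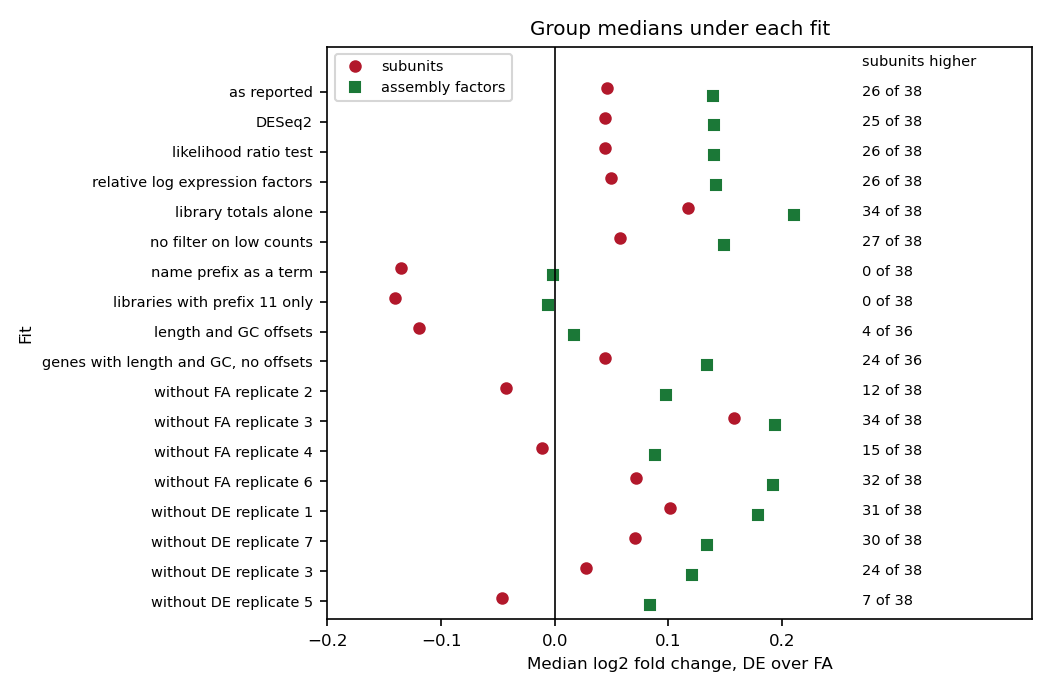
Median log2 fold change of DE over FA for subunits (circles) and assembly factors (squares) under the reported fit and 17 alternatives, with the number of subunits above 0 at the right. The subunits' median runs from -0.14 to 0.16 and the assembly factors' from -0.01 to 0.21.

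The rest of the enzyme and its neighbours in the respiratory chain were read from lists written by hand. Among the 7 subunits encoded in mitochondrial DNA, which form the pumping core, 0 were called, 5 were below 0 and the median was -0.12. ND5 had a mean CPM of 9436 ± 921 for FA and 6944 ± 1143 for DE (log2 fold change -0.44, edgeR adjusted p = 0.0694), and ND4 at 12683 ± 1094 and 9734 ± 979 CPM (-0.38, edgeR adjusted p = 0.0612, SD, n = 4 each). The groups did not overlap for 2 of these 7 genes, where 14.7% of all tested genes did not. Together the 7 genes came to 43746 to 54716 CPM in FA and 38332 to 46410 CPM in DE. Of 11 further assembly factors without the Nduf name, 10 were found and tested, 0 were called, 2 were above 0 and the median was -0.09. None was called among 4 genes of complex II (median -0.04), 8 tested genes of complex III (-0.03) and 15 genes of complex V (0.02). Over all tested genes 5.80% were called, and at that share lists as short as those of this paragraph can hold 0 calls. Complex V, ATP synthase, had 11 of 15 genes above 0.

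Markers of the cells in these preparations were read beside these values. All 7 cardiomyocyte markers were present and all were lower in DE by fitted value (median log2 fold change -0.15), and Myh6, the alpha myosin heavy chain, was called as lower in DE. The sum of the 7 was 43180 to 46185 CPM in FA and 32649 to 38671 CPM in DE, without overlap, and Myh6 made up most of that gap. Without Myh6, which was at 21230 to 24693 CPM in FA and 13754 to 15420 CPM in DE, the other 6 markers summed to 20076 to 24605 CPM in FA and 17921 to 23251 CPM in DE, with overlap, and none of them was called. All 8 fibroblast markers were higher in DE by fitted value, 2 of them called (Col1a1 and Dcn), and their sum was 2007 to 3459 CPM in FA and 3653 to 6173 CPM in DE, also without overlap. None was called among 6 endothelial, 5 smooth muscle and pericyte, 5 tested leukocyte, 5 erythroid and 4 atrial markers. Over all tested genes 5.80% were called. By fitted value, 5 of 6 endothelial, 4 of 5 leukocyte, 5 of 5 erythroid and 3 of 4 atrial markers were higher in DE. Of the smooth muscle and pericyte markers, 2 of 5 were higher. Their part in the values of complex I was not tested. In bulk RNA, fewer cardiomyocytes and less of a transcript per cardiomyocyte cannot be told apart.

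Both genes set aside by the rule bear related names. Ndufa4, a subunit of cytochrome c oxidase despite its symbol, had a mean CPM of 449 ± 77.8 for FA and 454 ± 60.8 for DE (log2 fold change 0.02, edgeR adjusted p = 0.946). Its paralog Ndufa4l2, a hypoxia-inducible gene, was at 5.13, 5.43, 4.91 and 7.42 CPM in FA replicates 2, 3, 4 and 6 and at 10.6, 18.1, 14.7 and 11.9 CPM in DE replicates 1, 3, 5 and 7. All DE libraries lay above all FA libraries, and Ndufa4l2 was called (log2 fold change 1.28, standard error 0.19, edgeR adjusted p = 0.00495). A further 3 genes with Nduf names, Ndufa11b, Ndufs5-ps and Ndufs6b, are not listed as protein coding and were left out.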

How the data were processed

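RNA from NCMs of 4 FA and 4 DE male neonates was sequenced as stranded poly-A libraries. Per the labels and methods, the authors aligned reads to mm10 with TopHat, marked duplicates without removing them, and used featureCounts to count fragments. The counts were deposited raw, with 1 row per Entrez gene. The counting annotation, strand setting and treatment of reads with several positions are not given in the sources used here, which leaves copies of a gene such as Ndufb4c uncertain. The methods give n = 3 per group without naming the libraries, so all 8 were used. Totals ran from 17943024 to 39839737 counts.

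Gene IDs were matched to RefSeq symbols on GRCm38.p6 (25298 of 27179, with 23, Ndufb1 among them, through an older ID). Counts were filtered (filterByExpr, minimum count 10), normalized by TMM and tested for exposure, with no other term, in edgeR 4.0.16 (glmQLFit, glmQLFTest, R 4.3.3), and p-values were adjusted by Benjamini-Hochberg over 14966 genes. CPM use the same factors, and levels per length use main transcripts of GENCODE M21. Library deviations are log2 CPM with a prior count of 2. The most alike libraries of a group (FA replicates 2 and 4) had a chi-square per gene of 5.37, so none was a copy. The other pairs within groups ran from 17.1 to 67.4, so FA replicates 2 and 4 were closer than any other pair. The code was tested on simulated data.

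Full test values are given for the 8 subunits with the smallest p and all assembly factors, and values per library also for the 3 highest and 3 lowest subunits per length. Of the members, 1 is counted in the totals and is not reported here by name. Members, lists and promoter motifs were chosen with earlier results of these data known. Alternatives were DESeq2 1.42.0, the likelihood ratio test, other normalizations, no filter, the name prefix as a term, prefix 11 only, length and GC offsets (splines with 5 degrees of freedom, for the 92.5% of tested genes with both), the same genes without offsets, and each library left out.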

Additional observations from a re-analysis of the deposited data

How the results depend on the processing

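The sources used here give no pairing of FA with DE hearts, so no paired analysis was run. Of 17 alternatives, 16 called 0 subunits and all 17 called 0 assembly factors, where 1.53% to 11.3% of all genes were called. The length and GC offsets called 1 subunit (Ndufs7), and a further subunit, Ndufb9, had an edgeR adjusted p of 0.0484 there with a difference under 25%. Leaving out 1 library at a time gave 0 called subunits and 0 called assembly factors throughout, against 1.53% to 7.93% of all genes. The median log2 fold change of subunits ran from -0.05 to 0.16 and the median log2 fold change of assembly factors from 0.08 to 0.19 with 1 library left out. Under all alternatives the medians moved by less than 1 SD of the spread between libraries (0.22 for subunits, 0.17 for assembly factors). That SD describes single libraries and is not the error of a difference between groups. Staying within it therefore does not show stable medians, and the sign for subunits changed in 6 alternatives. With library totals alone the medians were 0.12 and 0.21, where the median of all genes moved to 0.08.

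Among the 16 members tested by name, the sign changed for 8. With the prefix as a term and with prefix 11 alone, the log2 fold changes were -0.018 and -0.023 for Ndufb4, -0.066 and -0.072 for Ndufb2, -0.086 and -0.091 for Ndufv3, -0.15 and -0.16 for Ndufb7, -0.030 and -0.036 for Ndufs8, -0.054 and -0.059 for Ndufaf3, and -0.14 and -0.15 for Ndufaf8. With offsets they were -0.026 for Ndufb2, -0.024 for Ndufv3, -0.14 for Ndufb7, -0.12 for Ndufs8 and -0.13 for Ndufaf8. Ndufaf1 was at 0.016 with library totals alone. With 1 library left out, Ndufaf1 ran from -0.13 to 0.023 and Ndufaf8 from -0.054 to 0.22. The cause of these changes was not tested. Assembly factors had as few as 151 counts in a library (Ndufaf8), so counting error adds to the spread between hearts for the lowest of them.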
